A study of Homo sapiens with 6 samples.

Results

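AP-1 is a transcription factor made of pairs of Fos and Jun proteins, and the genes described here are its 7 classical subunit genes (FOS, FOSB, FOSL1, FOSL2, JUN, JUNB and JUND) with 3 immediate early response genes, IER2, IER3 and IER5. They were listed by symbol, as the classical AP-1 subunits and IER genes, with earlier results of these data known. All 10 were found among the 60604 genes of the count tables, and all 10 were among the 17200 genes with enough counts to be tested. Total RNA was sequenced in 6 libraries of AGS, a human epithelial line established from a gastric adenocarcinoma. The 3 control libraries came from cells with 0 mM indomethacin, and the 3 indomethacin libraries from cells given 0.5 mM for 24 h. Indomethacin is a non-steroidal anti-inflammatory drug that inhibits the cyclooxygenases. No label gives a vehicle or a time in culture for the controls, and none says whether each library of a group had its own culture. The p-values therefore reflect only how far these libraries differ from one another, which may be technical variation.

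Immediate early genes are switched on within minutes by growth factors and by stress, without new protein synthesis, because kinases of the MAP kinase cascades act on factors already bound at their promoters. Their mRNAs are usually short-lived. Fos proteins pair only with Jun proteins or other leucine zipper proteins, whereas Jun proteins can also pair with themselves, and the pairs bind the DNA element TGACTCA or the related element TGACGTCA. In epithelial cells AP-1 acts on genes of proliferation, migration, matrix breakdown and the stress response.

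The promoters are shown because early genes are regulated through factors bound close to their starts. The part of promoter elements in any change of level was not tested. Promoter windows were matched by symbol for 8 of the 10 genes (RefSeq, GRCh38.p14), all but FOSL1 and IER3. The 250 bases before the start of 4 of them are printed 5′ to 3′ on the strand of the gene. Capitals mark matches to TGACG, the first letters of the cyclic AMP response element, on either strand, to TGACNTCA on either strand, to TATAAA, and to the MEF2 site.
FOS (chr14:75278578-75278827, plus strand): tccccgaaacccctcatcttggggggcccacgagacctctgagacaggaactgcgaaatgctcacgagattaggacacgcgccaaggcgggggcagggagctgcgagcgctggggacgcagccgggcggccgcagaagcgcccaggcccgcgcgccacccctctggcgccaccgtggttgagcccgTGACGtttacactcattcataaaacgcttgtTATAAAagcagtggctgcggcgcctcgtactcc
FOSB (chr19:45467746-45467995, plus strand): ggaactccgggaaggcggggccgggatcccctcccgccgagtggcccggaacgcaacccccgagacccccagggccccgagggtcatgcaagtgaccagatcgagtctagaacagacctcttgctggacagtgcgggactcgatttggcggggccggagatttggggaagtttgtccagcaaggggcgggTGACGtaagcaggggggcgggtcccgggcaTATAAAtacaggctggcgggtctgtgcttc
JUN (chr1:58784048-58784297, minus strand): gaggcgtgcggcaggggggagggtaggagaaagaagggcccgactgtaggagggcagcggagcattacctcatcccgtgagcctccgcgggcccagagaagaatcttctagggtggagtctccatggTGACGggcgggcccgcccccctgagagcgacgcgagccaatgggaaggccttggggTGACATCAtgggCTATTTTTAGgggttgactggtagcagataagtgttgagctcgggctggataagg
JUND (chr19:18281623-18281872, minus strand): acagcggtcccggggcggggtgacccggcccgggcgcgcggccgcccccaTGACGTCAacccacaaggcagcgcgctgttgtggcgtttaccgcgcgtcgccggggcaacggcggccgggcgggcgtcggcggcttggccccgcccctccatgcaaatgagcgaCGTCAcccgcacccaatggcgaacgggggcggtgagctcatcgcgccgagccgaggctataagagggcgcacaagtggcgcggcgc
FOS and FOSB each held TGACG close to the start, at 64 to 60 and at 60 to 56 bases before it, followed by TATAAA at 33 to 28 and 30 to 25 bases. JUN held TGACATCA at 67 to 60 bases and, just downstream of it, the MEF2 site at 55 to 46 bases. JUND held TGACGTCA at 200 to 193 bases. Over both strands, TGACG was found in 7 of the 8 promoters, all but that of IER5, and in 21.2% of 34943 promoter windows of the same length. TGACNTCA, which overlaps TGACG where N is G, was found in 2 of 8 and in 6.86% of all windows, and TATAAA in 3 of 8 and in 10.8%. TGACTCA and the CArG box, the element bound by serum response factor, were found in 0 of the 8 windows and in 4.22% and 1.16% of all. The MEF2 site was found in JUN alone among the 8 and in 2.81% of all. These are matches of letters in a short window and say nothing on their own about binding. Bases more than 250 before the start were not searched, so a CArG box or other element further upstream would not be counted.

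The genes were short, and most carried a motif of mRNA decay. In GENCODE 29 the main coding transcript of each of the 10 genes had 4 or fewer exons, against 19.97% of the 12046 coding genes compared, and 5 of them (JUN, JUNB, JUND, IER2 and IER5) had a single exon. Their genomic spans were 10000 bases or less in 9 of 10, against 21.66% of all. The AU-rich element core TATTTAT, a binding site of decay factors such as tristetraprolin, was found at least once in the 3′ untranslated region of 8 of 10 genes, all but JUNB and IER2, and in 33.27% of all. Among regions of 500 to 2000 bases it was found in 27.03% of the genes compared. That range leaves out FOSB (2166 bases), IER5 (3013) and FOSL2 (4864), each of which held the core. The first such site of 4 genes is shown 5′ to 3′ with 10 bases on either side and that core in capitals, so that the differing flanks of 1 shared core can be read.
FOS: gtttttaattTATTTATtaagatggat
FOSL1: gggcagctgcTATTTATtttcctaaag
JUN: tgcttatgaaTATTTATaacagcattc
IER3: tcctaattaaTATTTATatgtatttat
IER3 had 4 of these cores in 737 bases and FOS 2 in 806 bases, while FOSL1 had 1 in 666 bases and JUN 1 in 1287 bases.

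Library totals were between 17535435 and 23221077 counts. The 6 epithelial markers summed to 3224 to 3716 CPM (counts scaled to a common library total, with TMM factors) in control and 2881 to 3191 in indomethacin libraries. Of these, EPCAM (285 ± 7.72 to 178 ± 10.2 CPM) and KRT8 (1670.1 ± 154 to 1144 ± 57.4 CPM) fell, CLDN4 rose (99.4 ± 20.4 to 323 ± 18.9 CPM), KRT18 and KRT19 did not pass at means of 589 CPM or more, and KRT7 was at 0.818 and 0.980 CPM. The summed level of 4 endothelial markers was 0.421 to 0.489 and 0.240 to 0.522 CPM, and that of 6 fibroblast markers 6.51 to 8.60 and 9.65 to 11.5 CPM. Among the fibroblast markers COL1A1 rose from 4.92 ± 1.31 to 10.0 ± 0.948 CPM and PDGFRB fell from 2.52 ± 0.616 to 0.104 ± 0.0484 CPM. COL1A2, DCN and CDH5 were at 0 in all control libraries, and KDR in all indomethacin libraries. Of 5 leukocyte markers, which summed to 598 to 1363 and 118 to 125 CPM, only lysozyme, LYZ, was above 0.3 CPM on average, and it fell from 1099 ± 435 to 121 ± 3.83 CPM. The 5 markers of gastric mucosa summed to 0.749 to 2.1 and 19.0 to 32.8 CPM. The mucin genes MUC5AC and MUC6 had means of 0.388 CPM or less, and GKN1 was at 0 in the controls. TFF1 rose from 0.774 ± 0.644 to 25.2 ± 8.45 CPM, and TFF2 from 0.0454 ± 0.0469 to 1.94 ± 0.624 CPM. Mitochondrial genes took 22.8% to 26.8% of counts in control and 16.69% to 19.71% in indomethacin libraries. The part of these markers and of the mitochondrial share in the results was not tested, apart from library sizes without mitochondrial genes, which kept all 10 genes called.

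One control library stood apart in early response genes. In control replicate 1 the level was more than 1.5 times the mean of control replicates 2 and 3 for 4 of the 10 genes, FOSB (3.49 times), FOS (2.95), IER3 (1.85) and JUN (1.68), and for 17 of 35 other immediate early genes tested, against 9.08% of all genes tested. NR4A1, an orphan nuclear receptor gene, was at 31.5 CPM there and at 5.92 and 9.46 CPM in the other controls, and EGR1, a zinc finger factor of the same response, at 43.5, 18.5 and 23.5 CPM. JUNB, JUND and IER5 did not share this, with ratios of 1.02, 0.903 and 1.02. For each of the 10 genes that it moved by over 1.5 times the value without it is given in the text, and for all 10 in the plot of fold changes. EGR1, NR4A1 and EGR2 were picked after their values were seen.

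All 10 genes rose in the indomethacin libraries. By edgeR's quasi-likelihood test with Benjamini-Hochberg adjustment over all 17200 genes tested, 10 of 10 were higher at an adjusted p under 0.05, against 30.6% of all genes. Without control replicate 1 it was again 10 of 10, against 27.0% of all genes. The median log2 fold change of the 10 was 1.37, against 0.04 for all genes. The levels of the groups did not overlap in 10 of 10, against 33.7% of all genes in that direction. The rise was at least 2-fold in 8 of 10, against 17.4% of all genes. Fold changes ran from 1.68-fold for IER2, at the 76.0 percentile of all log2 fold changes, to 4.38-fold for FOSL1, at the 94.9 percentile. In bulk RNA, a change in the number of cells that express a gene and a change in its RNA per cell cannot be told apart.

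**Figure D1:**
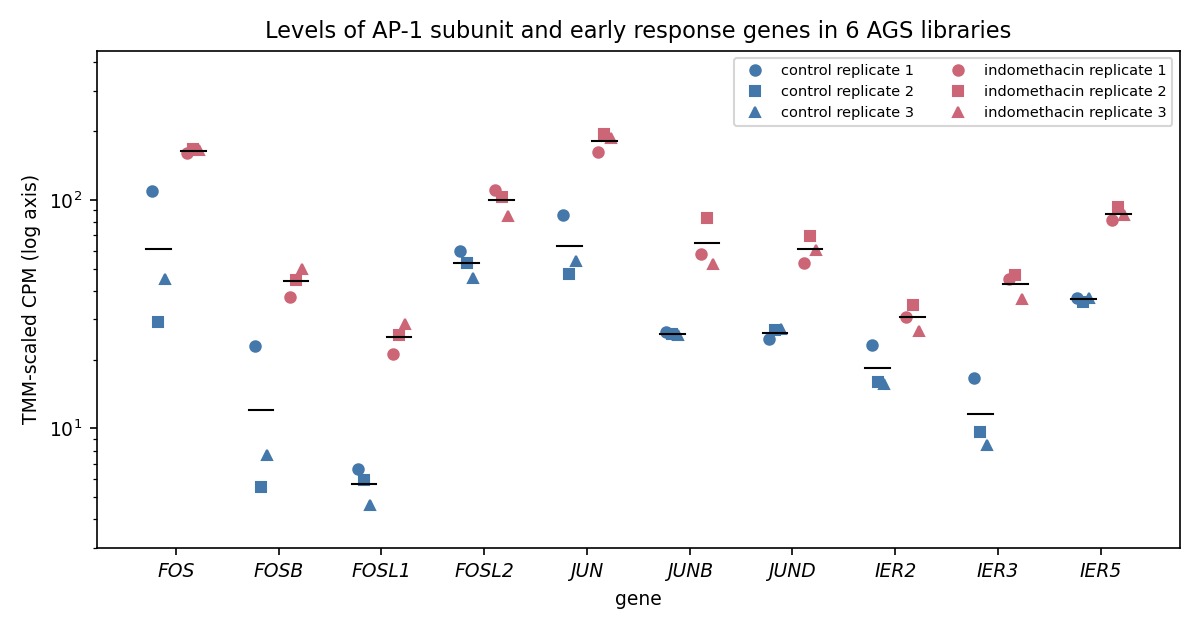
TMM-scaled CPM (log axis) of each gene in the 3 control (blue) and 3 indomethacin (red) libraries, with 1 point per library, a marker shape per replicate number and a line at the group mean. The red points lie above the blue ones for all 10 genes, and control replicate 1 lies close to the indomethacin libraries for FOS, at 109 against 161 to 167 CPM.

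Among the Fos subunits, FOSL1 (ENSG00000175592, chr11:65892049-65900573, minus strand, hg38), which encodes Fra-1, a subunit without the strong activation domain of c-Fos and linked to invasive epithelial growth, had the largest fold change in the fit of all 6 libraries. Without control replicate 1 FOSB was ahead of it (6.42-fold against 4.55-fold), and with limma-voom FOSB was at a log2 fold change of 2.16 against 2.13. FOSL1 was at 6.61, 5.96 and 4.63 CPM in the control libraries and at 21.2, 25.6 and 28.5 CPM in the indomethacin libraries. The lowest indomethacin library was 3.22 times the highest control, the widest gap of the 10 genes. The log2 fold change was 2.13 (SE 0.17, 95% interval 1.77 to 2.49; edgeR adjusted p = 1.1e-07; n = 3). These levels rest on 99 to 140 counts per control library and 448 to 517 per indomethacin library.

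FOS (ENSG00000170345, chr14:75278826-75282230, plus strand, hg38), the gene of c-Fos, was even in the treated cells and uneven in the controls. Its control libraries were at 109, 29.1 and 45.2 CPM and its indomethacin libraries at 161, 167 and 165 CPM, so the highest control was 3.76 times the lowest while the indomethacin libraries lay within 1.04 times. The groups did not overlap, but the lowest indomethacin library was only 1.47 times control replicate 1. The rise was 2.69-fold with an interval of 1.66-fold to 4.37-fold (log2 fold change 1.43, SE 0.33; edgeR adjusted p = 0.0017). Without control replicate 1 it was 4.27-fold (log2 fold change 2.09, edgeR adjusted p = 3.2e-07).

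FOSB (ENSG00000125740, chr19:45467995-45475179, plus strand, hg38), which is known for a stable shortened product that builds up under lasting stimulation, followed the same pattern at a lower level. It was at 23.0, 5.53 and 7.68 CPM in control and at 37.6, 44.7 and 49.9 CPM in indomethacin libraries. Again control replicate 1 was the high one. The rise was 3.67-fold (log2 fold change 1.87, SE 0.36; edgeR adjusted p = 0.00047), and without control replicate 1 it was 6.42-fold (log2 fold change 2.68, edgeR adjusted p = 6.2e-08). Isoforms cannot be told apart in counts per gene.

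FOSL2 (ENSG00000075426, chr2:28392448-28417317, plus strand, hg38), which encodes Fra-2, rose least among the Fos genes. Its values were 59.5, 53.0 and 45.7 CPM in control and 111, 103 and 84.7 CPM in indomethacin libraries, a rise of 1.89-fold (log2 fold change 0.92, SE 0.13; edgeR adjusted p = 3.1e-05). The 95% interval of its log2 fold change, 0.64 to 1.20, lay wholly under that of FOSL1. A test between the genes was not run.

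All 3 Jun subunits rose. JUN (ENSG00000177606, chr1:58776845-58784048, minus strand, hg38), the gene of c-Jun and the main partner of Fos proteins, stood at 85.8, 47.6 and 54.3 CPM in control and at 162, 195 and 186 CPM in indomethacin libraries, with control replicate 1 the highest of its group and the lowest treated library 1.88 times as high. Its log2 fold change was 1.53 (SE 0.18, 95% interval 1.15 to 1.92; edgeR adjusted p = 5.2e-06), the largest of the 3, and 1.77 without control replicate 1.

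JUNB (ENSG00000171223, chr19:12791486-12793315, plus strand, hg38), often an antagonist of c-Jun in proliferation, was nearly constant in the controls at 26.4, 26.0 and 25.6 CPM and spread in the treated cells, at 57.9, 83.3 and 52.3 CPM. Indomethacin replicate 2 was the high library. The log2 fold change was 1.31 (SE 0.15; edgeR adjusted p = 5.1e-06). Its exons share 259 of 1830 bases with HOOK2 on the opposite strand. HOOK2 had 1225 counts in control and 1884 in indomethacin libraries, so the value of JUNB is uncertain to that extent, since the strand setting of the counting is not known.

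JUND (ENSG00000130522, chr19:18279694-18281622, minus strand, hg38), the subunit usually expressed at a steady level in resting cells, also rose. It was at 24.5, 27.0 and 27.3 CPM in control and at 52.9, 69.8 and 60.2 CPM in indomethacin libraries (log2 fold change 1.21, SE 0.12; edgeR adjusted p = 1.2e-06). Indomethacin replicate 2 was again the highest, and the lowest treated library was 1.94 times the highest control. The intervals of JUN (1.15 to 1.92), JUNB (0.98 to 1.64) and JUND (0.95 to 1.48) overlapped, and no test between these genes was run.

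**Figure D2:**
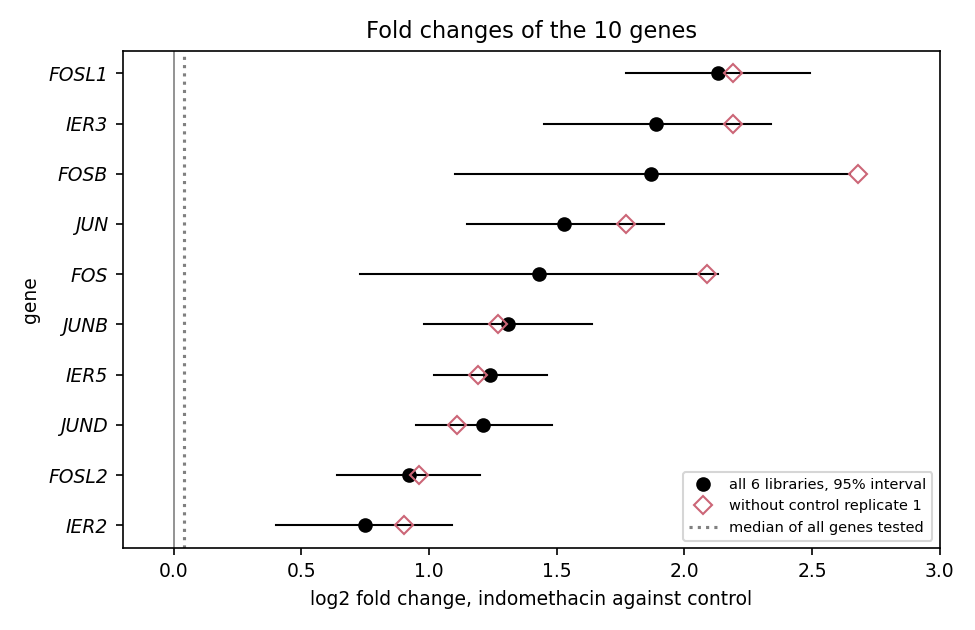
Log2 fold change of each gene between indomethacin and control libraries (edgeR, filled circles with 95% intervals) and the same without control replicate 1 (open diamonds), with the median of all genes tested as a dotted line. All intervals lie above 0, and leaving out that library moved FOS from 1.43 to 2.09 and FOSB from 1.87 to 2.68.

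All 3 IER genes rose, with 95% intervals of the log2 fold change of 1.45 to 2.34 for IER3, 1.02 to 1.46 for IER5 and 0.40 to 1.09 for IER2, and no test between them was run. IER3 (ENSG00000137331, chr6:30743199-30744548, minus strand, hg38), an early response gene that affects cell survival under stress, stood at 16.7, 9.66 and 8.43 CPM in control and at 45.1, 46.8 and 36.9 CPM in indomethacin libraries, a rise of 3.71-fold (log2 fold change 1.89, SE 0.21; edgeR adjusted p = 2.7e-06), and its log2 fold change without control replicate 1 was 2.19. Control replicate 1 was the highest control, and the groups were 2.21 times apart at their nearest libraries. IER3 shares 359 of its 1350 exonic bases with IER3-AS1 on the opposite strand, which had 33 and 119 counts summed over the 3 libraries of each group, while IER3 had 180 to 341 counts in each control library and 615 to 950 in each indomethacin library.

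IER5 (ENSG00000162783, chr1:181088700-181092900, plus strand, hg38), a gene whose product acts on heat shock factor 1, had the steadiest values of the 3. They were 37.3, 35.8 and 37.4 CPM in control and 81.5, 92.9 and 86.3 CPM in indomethacin libraries (2.36-fold, log2 fold change 1.24, SE 0.10; edgeR adjusted p = 1.9e-07). IER2 (ENSG00000160888, chr19:13150411-13154911, plus strand, hg38), a nuclear protein of the growth factor response, rose least of all 10 genes. It was at 23.2, 16.0 and 15.7 CPM in control and at 30.6, 34.8 and 26.7 CPM in indomethacin libraries (1.68-fold, log2 fold change 0.75, SE 0.16; edgeR adjusted p = 0.0011). Its nearest libraries, control replicate 1 and indomethacin replicate 3, were only 1.15 times apart. IER2 shares 662 of its 3079 exonic bases with ENSG00000287296 and 946 with ENSG00000267598, both on the opposite strand and at 0 counts. The strand setting of the counting is not known, so its level is uncertain to that extent.

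As CPM per kilobase of exon, the level in the controls was 19.2 ± 13.3 for FOS, 17.3 ± 5.62 for JUN, 14.2 ± 0.237 for JUNB and 13.6 ± 0.788 for JUND (mean ± SD, n = 3), and each neighbour in this order overlapped the next. Without control replicate 1 the mean of FOS was 11.7, under the 14.1 of JUN, JUNB and JUND alike, and that of FOSB was 1.19. IER5 (8.77 ± 0.217), IER3 (8.59 ± 3.30), FOSL2 (7.36 ± 0.958) and IER2 (5.95 ± 1.39) followed, with JUND and IER5 apart and the others overlapping their neighbours. FOSL1 (3.04 ± 0.533) and FOSB (2.18 ± 1.72) were lowest, apart from IER2 and overlapping each other.

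In the indomethacin libraries FOS (51.7 ± 0.989 CPM per kilobase) and JUN (50.0 ± 4.82) were highest, above JUNB (35.3 ± 9.02), IER3 (31.8 ± 3.92), JUND (31.6 ± 4.39), IER5 (20.7 ± 1.36), FOSL2 (13.9 ± 1.90), FOSL1 (13.3 ± 1.95), IER2 (9.97 ± 1.31) and FOSB (7.94 ± 1.11). IER5 was apart from both of its neighbours, and the other neighbours overlapped. IER3 moved from the level of IER5 to that of JUNB and JUND, and FOSL1 from under IER2 to the level of FOSL2. FOS lay at the 90.2 percentile of per-length levels among genes tested in control and at the 97.0 percentile in indomethacin libraries, and FOSL1 at the 53.8 and the 86.5 percentile.

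The summed per-length level of the 7 subunits was 101, 62.0 and 67.5 CPM per kilobase in control and 188, 224 and 199 in indomethacin libraries, 2.65 times as high on average. The makeup of this sum moved less than its size. Fos genes made up 49.7%, 33.3% and 36.2% of it in control and 44.8%, 39.5% and 44.1% in indomethacin libraries. The groups overlapped only through control replicate 1, and the other controls lay under all indomethacin libraries. For FOS alone those controls held 14.7% and 21.0%, against 23.5% to 26.9% in indomethacin libraries. For JUND they held 22.6% and 21.0%, against 14.6% to 16.1%, with control replicate 1 at 12.6%. JUN held 22.3% ± 1.11 and 24.5% ± 1.14. FOSL1 went from 3.46%, 5.09% and 3.64% to 5.99%, 6.06% and 7.60%, and FOSL2 from 8.21%, 11.9% and 9.46% to 8.27%, 6.41% and 5.94%. The shares of FOSL1 did not overlap between the groups. Those of JUN did not either, but lay close, at 23.4% or less in control and 23.7% or more in indomethacin libraries. Those of FOSL2 overlapped, since control replicate 1 lay under indomethacin replicate 1. These shares are given as a description, with no test.

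**Figure D3:**
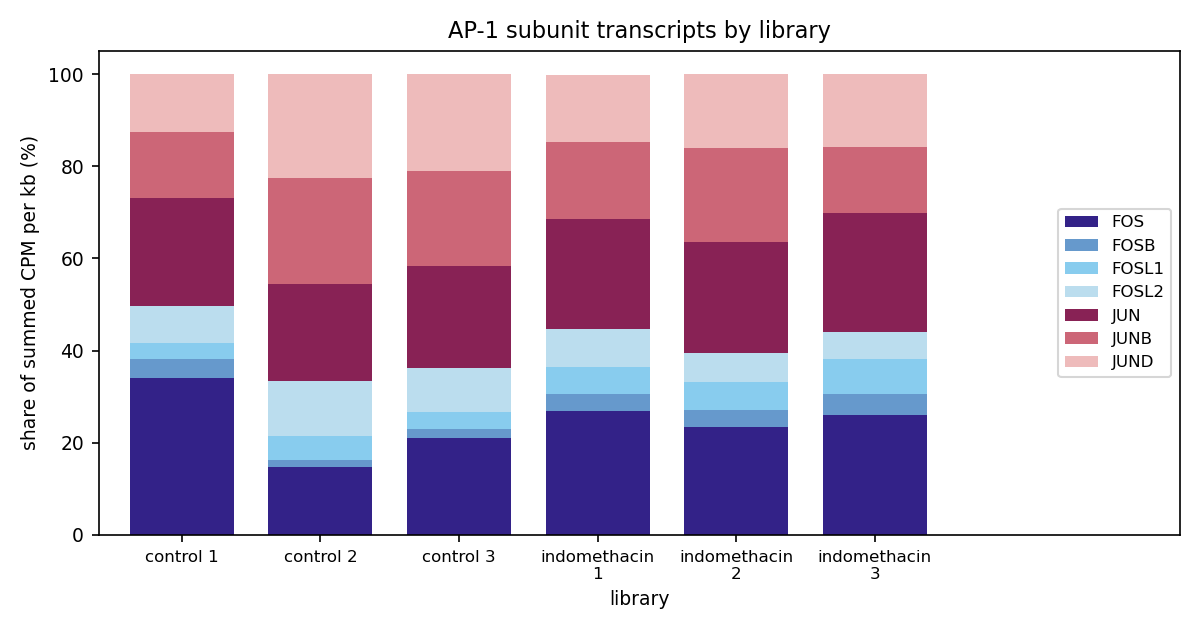
Share of each of the 7 AP-1 subunit genes in their summed CPM per kilobase, 1 bar per library, with Fos genes in blue and Jun genes in red. FOS takes from 14.7% (control replicate 2) to 34.0% (control replicate 1) of the control bars and 23.5% to 26.9% of the indomethacin bars.

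Over the 6 libraries, the genes whose log2 CPM followed FOS most closely among 10417 genes with a symbol and a mean of 5 CPM or more were FOSB (Pearson r = 0.992), TPT1 (0.9919) and VRK2 (0.9894). TPT1 moved far less than FOS, from 903 ± 117 to 1122 ± 30.9 CPM, and VRK2 shares exons with FANCL on the opposite strand. For JUN they were the microRNA host gene MIR23AHG (0.9971), at 13.9 ± 5.95 and 59.6 ± 7.44 CPM, the transcriptional cofactor gene CITED2 (0.9970), at 7.57 ± 2.92 and 20.2 ± 1.72 CPM, and TUFT1 (0.9963), at 36.3 ± 8.84 and 88.3 ± 8.21 CPM. Within the 10 genes, r with FOS ran from 0.77 for JUND to 0.99 for FOSB. All these correlations span both groups and the high control library, so they describe that shared pattern.

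Other leucine zipper partners of Jun and Fos rose too. Of 13 listed, 9 were tested, 7 rose and 0 fell, with a median log2 fold change of 2.03 (edgeR's quasi-likelihood test, all genes 30.6% higher and 31.0% lower). MAFF, a small Maf protein without an activation domain, went from 4.42 ± 0.879 to 42.9 ± 5.39 CPM (9.72-fold), BATF, which pairs with Jun proteins, from 6.05 ± 0.714 to 34.7 ± 0.676 CPM (5.73-fold), and MAFG from 19.8 ± 1.60 to 80.8 ± 10.4 CPM (4.07-fold). MAFK rose 5.16-fold, but shares 809 of 4470 exonic bases with TMEM184A on the opposite strand, which had 2887 counts beside its 2713, and MAFF shares 326 of 5611 with PLA2G6, which had 678 beside its 2748. MAFG shares 105 of 5241 with SIRT7 on the same strand, which had 3211 beside its 5955. It also shares 224 with ENSG00000264769 on the opposite strand, which had 57. JDP2, a repressor that pairs with Jun, had a log2 fold change of -0.89 and did not pass (edgeR adjusted p = 0.063), and was picked after its values were seen. Its fall was called with limma-voom (adjusted p = 0.046) and without indomethacin replicate 1 (-1.39, edgeR adjusted p = 0.015), which takes the count lower to 1. MAF had no count in any library, which allows up to 0.129 to 0.171 CPM, the level of 3 counts (counting error only).

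Of 26 genes of the MAP kinase cascades tested, 10 rose, 5 fell and 11 did not pass, with a median of 0.21. Over all genes 30.6% were higher and 31.0% lower, so the count higher lay above its share and the count lower under it. With no test of the list, these counts are no result about the kinases as a group. The count higher was 15 with upper-quartile factors, which gave 6124 genes higher over all genes in place of 5264. Of the MAP kinases that act on AP-1 proteins, MAPK8 (JNK1) and MAPK9 (JNK2) did not pass (edgeR adjusted p = 0.24 and 0.10). Their log2 fold changes were 0.15 and -0.19, with 95% intervals of -0.08 to 0.38 and -0.40 to 0.02. RPS6KA5, which encodes the nuclear kinase MSK1 that acts on chromatin and CREB at early gene promoters, rose from 4.14 ± 0.869 to 38.0 ± 2.01 CPM (9.12-fold). MAP2K6, an activator of p38 kinases, fell 41.8-fold to 0.489 ± 0.193 CPM, MAP3K1 fell from 177 ± 6.86 to 52.1 ± 6.40 CPM, MAP3K8 from 26.6 ± 10.9 to 6.81 ± 1.25 CPM and p38 alpha, MAPK14, from 83.6 ± 1.41 to 51.1 ± 0.396 CPM. RPS6KA1 fell slightly (-0.33, edgeR adjusted p = 0.018), a call lost with upper-quartile factors (adjusted p = 0.097) and without control replicate 3 (0.078). These are mRNA levels and not kinase activities. MAPK8 and MAPK9 were picked for their role after their values were seen.

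Of 11 factors tested that act at early gene promoters, 8 rose and 1 fell, with a median of 0.48, against 30.6% higher and 31.0% lower of all genes. The count higher was 5 without control replicate 1, against 27.0% of all genes. MEF2D rose from 9.77 ± 1.86 to 33.3 ± 5.66 CPM and MEF2A 1.83-fold to 53.0 ± 3.05 CPM, both of the family that binds the MEF2 site, and the coactivator CREBBP from 35.6 ± 4.63 to 67.3 ± 5.57 CPM. LYSMD4, on the opposite strand, shares 770 of 6925 exonic bases with MEF2A. ELK3, a ternary complex factor that represses until it is phosphorylated, fell from 23.4 ± 3.16 to 8.35 ± 2.56 CPM. SRF, the factor that binds the CArG box, was at 27.8 ± 11.2 and 19.8 ± 0.172 CPM and did not pass (edgeR adjusted p = 0.056, log2 fold change -0.49). A fall of SRF was called with DESeq2 (adjusted p = 0.036), RLE factors (0.048), no filter (0.00015), the replicate block (0.046) and without control replicate 2 (0.0047) or 3 (0.035), which takes the count lower to 2. Its log2 fold change was -0.17 without control replicate 1, the highest library (edgeR adjusted p = 0.33). SRF was picked for its role after its values were seen.

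Most other immediate early genes rose. Of 39 listed, 35 were tested, 23 rose, 3 fell and 9 did not pass, with a median of 1.21, against 30.6% higher and 31.0% lower of all genes. The count higher was 26 without control replicate 1, against 27.0% of all genes. This list shares ATF3 with the leucine zipper partners and the ZFP36 family with the AU-rich factors. TRIB1, a pseudokinase gene, rose from 22.1 ± 2.54 to 115 ± 9.07 CPM, KLF4, a Kruppel-like factor of epithelial differentiation, from 9.38 ± 2.32 to 76.3 ± 5.09 CPM, and PPP1R15A 6.86-fold. The matricellular genes CCN2 and CCN1 and the kinase gene PLK2 fell, CCN2 from 64.7 ± 23.3 to 3.31 ± 0.316 CPM (19.5-fold), PLK2 from 203 ± 59.5 to 97.4 ± 2.94 CPM and CCN1 from 8.33 ± 5.57 to 3.95 ± 0.577 CPM. The fall of CCN1 (edgeR adjusted p = 0.018) was lost without control replicate 1 (0.13, log2 fold change -0.43 in place of -1.07), without indomethacin replicate 2 (0.078) and with limma-voom (0.058). EGR4 had no count. NR4A1 did not pass (15.6 ± 13.9 and 14.1 ± 2.79 CPM, log2 fold change -0.15, edgeR adjusted p = 0.78), and EGR2 did not either (0.03, edgeR adjusted p = 0.96). Both were highest in control replicate 1. Without that library NR4A1 rose (log2 fold change 0.82, edgeR adjusted p = 0.0082), and EGR2 was at 0.87 and did not pass (edgeR adjusted p = 0.063).

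**Figure D4:**
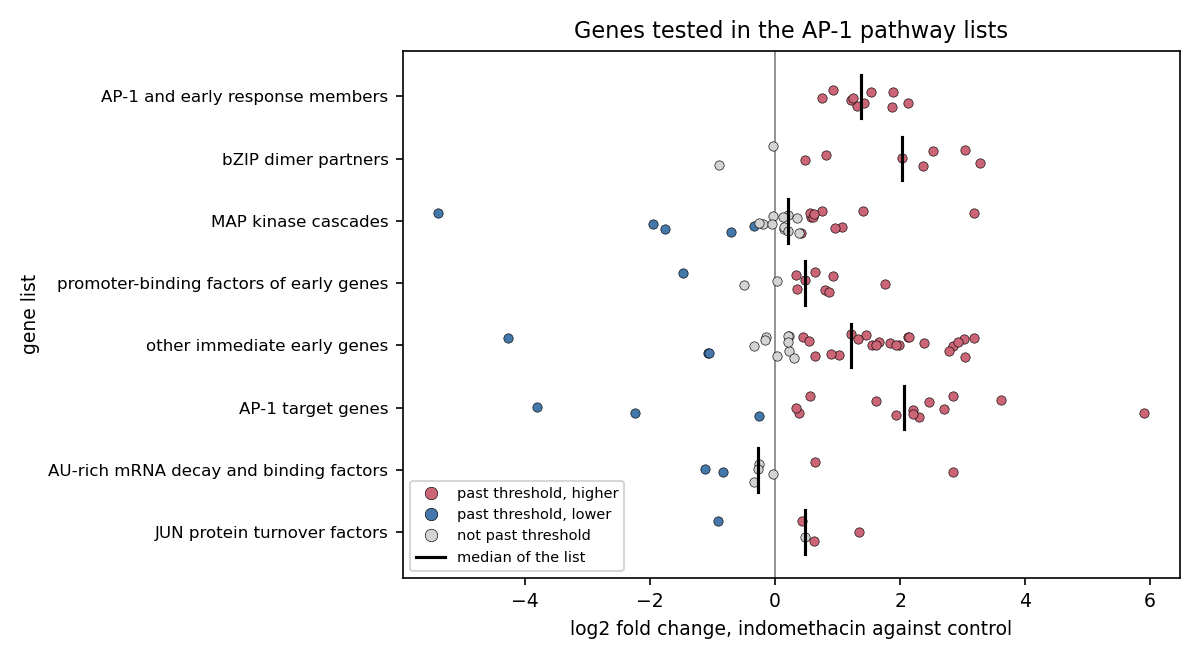
Log2 fold change of every gene tested in each list, red for higher and blue for lower past an adjusted p of 0.05 (edgeR) and grey for the rest, with a black line at the median of the list. The medians were 1.37 for the AP-1 and early response genes, 2.07 for AP-1 targets and -0.27 for AU-rich RNA factors.

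Known AP-1 targets with enough counts mostly rose. Of 25 listed, 16 had enough counts to be tested, 13 rose and 3 fell, with a median of 2.07, against 30.6% higher and 31.0% lower of all genes. MMP10 was tested only through its indomethacin level (1 to 3 counts per control library, 73 to 128 per indomethacin library). MMP7 was tested only through its control level (28 to 37 and 1 to 3 counts). The direction of both was thereby set by the filter, and MMP10 was picked after its values were seen. The collagenase gene MMP1, a standard AP-1 target, was at 11.6, 13.8 and 19.0 CPM in control and at 183, 179 and 179.9 CPM in indomethacin libraries (12.2-fold, log2 fold change 3.61, SE 0.16; edgeR adjusted p = 5.7e-10). The urokinase receptor gene PLAUR rose from 19.8 ± 2.63 to 128 ± 13.8 CPM, the growth factor gene HBEGF from 24.5 ± 3.50 to 177 ± 34.2 CPM and VEGFA from 162 ± 21.9 to 747 ± 92.9 CPM. The matrilysin gene MMP7 fell from 1.54 ± 0.160 to 0.108 ± 0.0661 CPM and cyclin D1, CCND1, 4.72-fold. CCND1 shares 497 of 4761 exonic bases with LTO1 on the opposite strand. The fall of EZR (-0.25, edgeR adjusted p = 0.044) was lost without control replicate 2 (0.071) or 3 (0.076), without indomethacin replicate 1 (0.063) or 2 (0.082), with upper-quartile factors (0.26) and with a minimum of 1 CPM (0.084). The urokinase gene PLAU itself had no count in any library.

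Of 8 factors tested that bind AU-rich elements of early mRNAs, 2 rose, 2 fell and 4 did not pass, with a median of -0.27. These counts are near the shares over all genes, 30.6% higher and 31.0% lower. ZFP36, which encodes tristetraprolin and is an immediate early gene too, rose from 20.9 ± 8.42 to 149 ± 20.5 CPM and its relative ZFP36L2 from 11.3 ± 0.791 to 17.5 ± 2.25 CPM. TIA1 fell from 63.2 ± 6.04 to 28.9 ± 2.41 CPM and ELAVL1, which encodes the stabilising factor HuR, from 55.6 ± 7.18 to 30.9 ± 1.23 CPM. Without control replicate 1 the number that fell was 5, against 29.6% of all genes, and it was 5 with no filter or a block on replicate number and 4 when indomethacin replicate 1 was left out. Of 5 genes of Jun protein turnover, 3 rose, against 30.6% of all genes, the ubiquitin ligase genes FBXW7 (34.0 ± 2.09 to 86.3 ± 4.13 CPM), ITCH (160 ± 1.38 to 248 ± 16.4 CPM) and COP1 (79.3 ± 2.37 to 107 ± 5.71 CPM). ZFP36L2 shares 826 of 3693 exonic bases with ENSG00000287387 on the opposite strand, which had 131 counts beside its 1760. On the same strand, TIA1 shares 211 of 6607 with C2orf42, which had 1209 beside its 5808. ITCH shares 412 of 10639 with DYNLRB1, also on the same strand, which had 1580 beside its 24736.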

How the data were processed

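Total RNA of AGS cells was sequenced as stranded paired-end libraries after ribosomal RNA depletion, per the labels' protocols. HISAT2 2.1.0, featureCounts and build hg38 are named per the submitters' processing notes. Not given in the sources used here were the strand setting and the gene annotation of the counting. Each deposited table holds raw counts per gene for 1 library and the gene's exonic length, per the file headers. Of the 60607 lines in each table, 3 belonged to a single broken gene entry and were not read.

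Genes passing filterByExpr were scaled by TMM and tested with edgeR 4.0.16 (R 4.3.3), glmQLFit and glmQLFTest, on a model of group alone, with adjustment by Benjamini-Hochberg over all 17200 genes. SE are those the statistic implies. CPM are TMM-scaled, as mean ± SD (n = 3), and log2 CPM used a prior count of 2. A symbol was matched for 60462 gene IDs. Any pair of libraries in 1 group was further apart than counting alone gives, with a chi-square of 6.99 to 21.9 for each degree of freedom. The genes and lists were chosen with earlier results of these data known. Named from each list were up to 4 genes past the threshold with the smallest adjusted p, those against its main direction and those without a count (others are said to be picked after their values were seen), and for FOS and JUN the 3 most correlated genes. Some listed genes are not reported here. Alternatives were limma-voom (limma 3.58.1), DESeq2 1.42.0, RLE and upper-quartile factors, library sizes without mitochondrial genes, no filter, 1 CPM in 3 libraries, the replicate block and each library left out. The tests were run first on simulated data, in which far fewer genes changed than were called here. That run is not used as support for these results.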

Additional observations from a re-analysis of the deposited data

How the results depend on the processing

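The count of 10 of 10 genes higher held in all 14 alternatives, including DESeq2, where FOS had its largest adjusted p (0.024), and with the replicate number as a block (10 of 10). The labels give both groups replicate numbers 1 to 3, but same-numbered libraries did not all deviate together (r = 0.0233, 0.0117 and 0.132), and control replicate 2 correlated best with indomethacin replicate 1 (0.131), so the numbers were not taken as pairs. The block gave 10601 calls over all genes in place of 10591, and 83 of the other listed genes in place of 78. Over the libraries left out in turn, calls over all genes ran from 9625 to 10520, and those of the other listed genes from 71 to 78. Upper-quartile factors raised the median log2 fold change of all genes from 0.04 to 0.16. The Fos share of summed subunit levels, 39.7% in control and 42.8% in indomethacin libraries, was 52.2% in both when levels were not divided by length, where FOSB (5553 bases) and FOSL2 (7162) weigh more. Per length, the control mean of 39.7% includes control replicate 1 at 49.7%, beside 33.3% and 36.2% in the other controls. Genes at a few counts, such as MMP7, are limited by depth.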
